A study of Arabidopsis thaliana with 9 samples.

Results

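The transcriptome of csu5-1 seedlings was compared with that of the wild type Col. The comparison rests on 6 of the 9 libraries of the study, 3 labelled csu5-1 and 3 labelled Col-0 wildtype, and covers every gene with a value of at least 1 FPKM in at least 3 of the 6 (19066 of the 32678 genes listed). FPKM is a count of fragments divided by the exon length in kilobases and by the M (mega) reads counted in the library. The csu5-1 seedlings carry a mutation of COP1 SUPPRESSOR 5 in an otherwise unstated background, csu5-3 seedlings carry another allele of the same gene, and Col is the unmutated Columbia-0 accession. All 3 genotypes were 5 days old and had grown under constant white light of 14.59 μmol per square metre and second. Whole seedlings were harvested and polyadenylated RNA was sequenced. The labels name no cop1 mutation, no transgene and no other treatment. They do not say which csu5 allele is the missense one named in the title, whether other mutations were crossed out, how many seedlings made up a library or whether the libraries came from separate cultures, so the p-values measure the spread between these samples. Because whole seedlings were used, fewer cells of a type and less RNA per cell cannot be told apart.

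COP1 is a ubiquitin ligase that, in darkness, marks light-signalling transcription factors such as HY5 for destruction and so keeps seedlings long and unexpanded. HY5 and its partners promote greening and restrain elongation of the hypocotyl, while the PIF factors promote elongation. Suppressors of cop1 are mutants in which the short, light-grown look of a cop1 seedling is partly undone. In the published literature CSU5 is the transcription factor WRKY32, an identity that the labels do not give.

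WRKY32 was listed at 8.17, 8.22 and 7.96 FPKM in csu5-1, against 8.48, 10.1 and 11.1 FPKM in Col. The values listed for csu5-1, before scaling between libraries, all lay below those for Col, as for 35.7% of all genes tested. The log2 fold of −0.19 ± 0.12 (SE, n = 3 libraries each) did not pass the test (limma, Benjamini-Hochberg adjusted p = 0.20). In csu5-3 the mean was 4.0 FPKM. COP1 itself averaged 20.7 ± 0.442 FPKM in csu5-1 and 20.4 ± 0.172 FPKM in Col (SD, n = 3 each). HY5 was at 14.2, 13.8 and 14.1 FPKM in csu5-1, against 26.01, 20.8 and 19.96 FPKM in Col. The libraries did not overlap, but the HY5 log2 fold of −0.56 ± 0.09 stayed under the fold limit used here (limma, adjusted p = 0.00025). PIF4 rose, at 52.4, 60.7 and 55.0 FPKM in csu5-1, against 17.2, 18.1 and 15.4 FPKM in Col, a log2 fold of 1.78 ± 0.12 (limma, adjusted p = 1.5e-07).

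The estimated depth was 37.1 to 39.4 M counted reads in csu5-1 and 39.0 to 41.7 M in Col. The first principal component of the 6 libraries carried 77.2% of the variance and put csu5-1 at 34.2 to 38.6 and Col at −37.7 to −35.6. On the second component (6.35%), csu5-1 replicate 2 was at −18.3 and the other csu5-1 libraries at 7.77 and 11.5, and Col replicate 2 was at −9.59 and the other Col libraries at 2.93 and 5.76. The 5 markers of shoot photosynthetic cells summed to 14480 to 15034 FPKM in csu5-1 and 11229 to 11732 FPKM in Col. Among them the antenna genes LHCB3 and LHCA1 rose, with log2 folds of 2.66 and 1.96, while RBCS1A, CA1 and GAPA were not called, with log2 folds of −0.4, 0.2 and 0.0. What part the abundance of these cells had was not tested. Also present in every library were root endodermis markers (CASP1 86.2 to 101 FPKM in csu5-1 and 66.5 to 79.2 FPKM in Col). The highest value of the 6 flower and pollen markers in any csu5-1 or Col library was 0.77 FPKM, and the floral gene AG was listed at 0 in all 6.

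Genes were called where the adjusted p was below 0.01 and the fold exceeded 1.5 in either direction. In csu5-1, 1599 genes rose (8.39% of those tested) and 1516 fell (7.95%), which makes 3115 called genes (16.3%). A further 3833 genes had an adjusted p below 0.01 but a smaller fold. More than 2-fold changes were seen for 645 genes that rose (3.38%) and 412 that fell (2.16%), and more than 4-fold changes for 118 that rose (0.619%) and 36 that fell (0.189%). Beyond 8-fold there were 28 that rose (0.147%) and 7 that fell (0.0367%). The log2 folds of 10% of all genes lay below −0.55 and those of 10% above 0.56. Of the 19066 genes, 154 passed the level filter through csu5-1 alone and 153 through Col alone, and such genes had to differ. Among the other 18759, 1474 rose and 1431 fell. Without scaling between libraries the median of all log2 folds was −0.08, 1311 genes rose and 1944 fell, so the balance of rises and falls depends on the scaling while the directions given below are relative to the median gene.

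**Figure D1:**
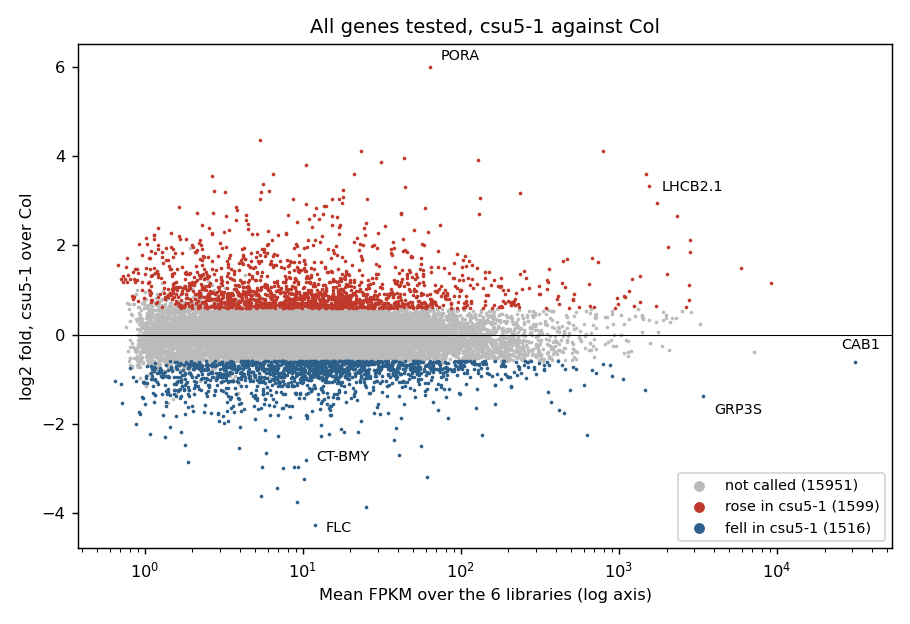
Each point is 1 of the 19066 genes tested, with its mean FPKM over the 3 csu5-1 and 3 Col libraries on a log axis and its log2 fold of csu5-1 over Col. The 1599 genes that rose (red) and the 1516 that fell (blue) lie on both sides at every level below 1000 FPKM, PORA and FLC mark the extremes, and above 1000 FPKM most called points are rises.

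The calls were spread over the nuclear chromosomes. On each of the 5 nuclear chromosomes 15.9% to 16.6% of the genes tested were called. Of 88 tested plastid genes 2 rose and 18 fell (22.7% called), with a median log2 fold of −0.35, and of 10 tested mitochondrial genes none rose and 4 fell (40% called). The libraries hold polyadenylated RNA, and how fully transcripts of the organelles were captured in each was not tested. The calls were also spread over expression levels, with 17.8% called below 2 FPKM, 14% between 10 and 50 FPKM and 22.0% between 200 and 1000 FPKM. Of the 59 genes above 1000 FPKM, 21 rose and 4 fell, and their median log2 fold was 0.4. The 100 most abundant genes held 27.5% to 28.3% of the summed FPKM in the csu5-1 libraries and 23.7% to 24.0% in the Col libraries. In both genotypes the most abundant gene was CAB1, a chlorophyll-binding antenna protein, which took 3.38% to 3.47% of the FPKM in csu5-1 and 5.22% to 5.6% in Col.

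The largest gains in FPKM were those of other antenna genes. CAB2, a near-identical neighbour of CAB1, was at 3085, 2899 and 3196 FPKM in csu5-1, against 457, 386 and 413 FPKM in Col, a log2 fold of 2.95 ± 0.12 (limma, adjusted p = 2.3e-09). CAB1 averaged 24046 ± 206 FPKM in csu5-1 and 38740 ± 1292 FPKM in Col (SD, n = 3 each), a log2 fold of −0.61 ± 0.13 (limma, adjusted p = 0.0016). So these neighbouring copies moved in opposite directions, although reads shared between them make both values uncertain and the fall of CAB1 was no longer called without csu5-1 replicate 1. The largest losses after CAB1 were in the glycine-rich protein GRP3S, at 1663, 1726 and 2058 FPKM in csu5-1, against 4930, 5422 and 4616 FPKM in Col. GRP7, a glycine-rich RNA-binding protein that oscillates with the clock, averaged 833 FPKM in csu5-1 and 2105 FPKM in Col, and OEP6, a protein of the outer plastid envelope, averaged 207 FPKM in csu5-1 and 1041 FPKM in Col. The rubisco small subunit RBCS1B also lost, with 365 FPKM in csu5-1 and 839 FPKM in Col.

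The same genes can be set beside csu5-3, whose comparison with Col shares the Col libraries. Between csu5-1 and csu5-3, 1562 genes were higher in csu5-1 (8.19% of those tested) and 1255 were lower (6.58%). Of the 1599 genes that rose in csu5-1, 1255 were also higher in csu5-1 than in csu5-3, and of the 1516 that fell 1010 were also lower. Both comparisons use the same csu5-1 libraries, so such overlaps, here and in the lists below, are in part built in. Against Col, 47 genes were called in csu5-3 (0.247%), of which 22 rose (0.115%) and 25 fell (0.131%). The genes that rose in csu5-1 had a median log2 fold of 0.9 in csu5-1 and of 0.06 in csu5-3. Those that fell had medians of −0.8 in csu5-1 and −0.11 in csu5-3. These genes were selected by their csu5-1 fold, so the csu5-1 medians had to lie beyond the fold limit. Called against Col in both mutants were 11 genes that rose in both and 8 that fell in both. A further 6 rose in csu5-1 and fell in csu5-3, and 1 did the reverse. Among the largest falls, AT3G01345, an uncharacterized gene, fell in both, with means of 1.32 FPKM in csu5-1, 0.253 FPKM in csu5-3 and 13.6 FPKM in Col. So did the defensin-like AT1G13609, at 0.0467, 0.307 and 3.7 FPKM, which passed the level filter through Col alone.

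The upstream sequences of the genes with the largest rise and the largest fall are shown first. PORA makes the light-dependent enzyme of chlorophyll synthesis that accumulates in etiolated seedlings, and it was at 137, 107 and 130 FPKM in csu5-1, against 1.12, 1.88 and 1.74 FPKM in Col. FLC encodes a MADS-domain repressor of flowering, and it was at 0.27, 0.97 and 0.91 FPKM in csu5-1, against 21.6, 23.8 and 23.5 FPKM in Col. The log2 folds were 6.0 ± 0.19 for PORA and −4.27 ± 0.19 for FLC (limma, adjusted p = 4.2e-10 and 5.1e-09). FLC passed the level filter through Col alone, so it had to differ. The 300 bases before each RefSeq gene start (assembly TAIR10.1, minus strand; PORA chr5:21992815-21993114, FLC chr5:3179449-3179748) are given 5′ to 3′, with motif matches in capitals.
PORA: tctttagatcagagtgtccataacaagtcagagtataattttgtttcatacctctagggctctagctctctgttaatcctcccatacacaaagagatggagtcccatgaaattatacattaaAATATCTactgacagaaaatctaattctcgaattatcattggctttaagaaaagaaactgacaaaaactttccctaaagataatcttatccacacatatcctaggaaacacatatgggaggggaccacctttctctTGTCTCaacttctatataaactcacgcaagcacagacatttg
FLC: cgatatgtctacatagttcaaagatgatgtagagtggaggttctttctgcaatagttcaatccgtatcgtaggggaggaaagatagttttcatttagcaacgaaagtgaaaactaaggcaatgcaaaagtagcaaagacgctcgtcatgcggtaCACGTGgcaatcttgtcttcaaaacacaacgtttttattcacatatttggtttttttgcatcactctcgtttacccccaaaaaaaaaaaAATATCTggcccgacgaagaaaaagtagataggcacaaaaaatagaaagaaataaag
PORA holds the core of the evening element 178 bases before the start and an auxin response element 42 bases before it. FLC holds a G-box 146 bases and an evening element core 57 bases before the start.

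The motifs searched on both strands were the G-box CACGTG, the PBE-box CACATG bound by PIF factors, the evening element core AATATCT, the W-box TTGACC or TTGACT bound by WRKY factors, and the auxin response element TGTCTC. No motif contains another. Over 18948 promoters of tested genes, the G-box occurred in 10.7% of those of genes that rose, 6.7% of those of genes that fell and 8.0% of all. Among the 118 genes that rose more than 4-fold it occurred in 16.9%. The PBE-box occurred in 18% of promoters of genes that rose, 12.1% of those of genes that fell and 13.0% of all. The evening element core ran the other way, with 11.7% for genes that rose, 14.7% for genes that fell and 11.8% for all, and it reached 19.6% among genes that fell more than 2-fold. The W-box, the kind of site to which a WRKY factor binds, occurred in 29.9% of promoters of genes that rose, 30.7% of those of genes that fell and 31.6% of all. For the auxin response element the shares were 13.8% for genes that rose, 12.4% for genes that fell and 12.7% for all. Among the genes that rose more than 4-fold, the PBE-box occurred in 23.7%, the evening element core in 10.2%, the W-box in 32.2% and the auxin response element in 20.3%. Among those that fell more than 2-fold, the G-box occurred in 6.3%, the PBE-box in 13.6%, the W-box in 32.0% and the auxin response element in 14.4%. These matches are descriptions, and no share was tested.

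Families that loosen and rebuild the cell wall held many called genes. Expansins, which let wall polymers slide during growth, had 20 tested genes of 30, and 11 rose (55.0%) while 5 fell (25%). Of the 11, 1 passed the level filter through csu5-1 alone, and the number that fell was 3 without Col replicate 1. Their median log2 fold was 0.8 in csu5-1 and 0.07 in csu5-3. EXPA8 was at 145, 167 and 152 FPKM in csu5-1, against 51.4, 55.0 and 46.6 FPKM in Col, a log2 fold of 1.67 ± 0.07 (limma, adjusted p = 2.7e-09). Before scaling, every csu5-1 library lay above every Col library, as for 22.3% of all genes tested. The csu5-3 mean of 47.9 FPKM lay beside that of Col. EXPA6, EXPA11 and the beta-expansin EXPB3 rose as well, with means of 172, 155 and 85.2 FPKM in csu5-1 and 61.6, 67.9 and 27.2 FPKM in Col. EXPB3 also rose in csu5-3, to 45.7 FPKM. EXPA16 took the opposite course, at 13.2, 12.4 and 15.6 FPKM in csu5-1, against 54.8, 72.1 and 63.7 FPKM in Col, a log2 fold of −2.09 ± 0.1 (limma, adjusted p = 8.3e-09).

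Xyloglucan endotransglucosylases, which cut and rejoin the xyloglucan that ties cellulose fibrils together, had 28 tested genes of 33. Of these 14 rose (50%) and 4 fell (14.3%), with a median log2 fold of 0.49 in csu5-1 and 0.03 in csu5-3. TCH4, named for its response to touch, was at 41.2, 47.9 and 42.1 FPKM in csu5-1, against 11.7, 11.3 and 10.7 FPKM in Col, a log2 fold of 1.99 ± 0.1 (limma, adjusted p = 1.6e-08). XTH17, XTH24 and XTH4 rose to means of 134, 261 and 878 FPKM in csu5-1, against 46.3, 137 and 421 FPKM in Col. XTH6 fell by more than any other member, at 15.1, 13.8 and 18.8 FPKM in csu5-1, against 96.3, 92.5 and 99.99 FPKM in Col, a log2 fold of −2.49 ± 0.1 (limma, adjusted p = 2e-09). In csu5-3 XTH6 averaged 70.7 FPKM. XTH25 showed the mutants on either side of Col, with means of 12.2 FPKM in csu5-1, 1.85 FPKM in csu5-3 and 3.68 FPKM in Col.

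Pectin was covered by the family of pectin methylesterases and their inhibitors, which set how far pectin can be cross-linked. Of its 120 genes 52 were tested, 18 rose (34.6%) and 7 fell (13.5%), and 1 of the tested genes passed the level filter through csu5-1 alone and 3 through Col alone. The number that fell was 4 without Col replicate 2. ATPMEPCRD was at 119, 109.8 and 114 FPKM in csu5-1, against 40.4, 42.5 and 44.3 FPKM in Col, a log2 fold of 1.5 ± 0.06 (limma, adjusted p = 3.3e-09). AT3G49220 and AT3G10720 rose to 124 and 65.4 FPKM in csu5-1, against 53.6 and 35.1 FPKM in Col. AT3G62820 fell to a mean of 26.9 ± 2.94 FPKM in csu5-1, against 75.4 ± 3.33 FPKM in Col (SD, n = 3 each). Of 14 tested fasciclin-like arabinogalactan proteins 3 rose (21.4%) and none fell, and of 26 other arabinogalactan proteins 1 rose (3.85%) and 3 fell (11.5%). The fasciclin-like FLA9 and FLA2, which sit at the cell surface, rose to 245 and 137 FPKM in csu5-1, against 154 and 78.7 FPKM in Col. None of the 17 tested genes of cellulose synthesis was called by limma (at an unadjusted p below 0.05, 6 were higher and 2 lower), and their median log2 fold was 0.06 in csu5-1 and 0.17 in csu5-3.

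Root hair markers moved with some of these wall genes. Of 5 such markers 3 fell (PRP3, EXPA7 and LRX1, of which EXPA7 was not called without csu5-1 replicate 2 or Col replicate 1), and the 5 summed to 17.2 to 20.9 FPKM in csu5-1, against 38.1 to 46.4 FPKM in Col. PRP3, a proline-rich wall protein of root hairs, was at 5.71, 7.21 and 7.29 FPKM in csu5-1, against 23.1, 19.99 and 17.9 FPKM in Col. None of the 5 was at 0 in any library. Class III peroxidases, wall enzymes that use hydrogen peroxide, showed both directions, with 10 of 49 tested genes that rose (20.4%, or 6 genes without csu5-1 replicate 1 or Col replicate 1) and 7 that fell (14.3%, or 4 genes without Col replicate 1 or 3). Of the 49, 2 passed the level filter through csu5-1 alone and 2 through Col alone, and among the others 8 rose and 5 fell. AT4G26010 fell to 7.25 FPKM in csu5-1, against 15.1 FPKM in Col, and AT1G30870 fell to 8.22 FPKM in csu5-1, against 17.1 FPKM in Col. AT2G41480 rose to 8.19 FPKM in csu5-1, against 2.04 FPKM in Col. The part of root hair cells in these falls was not tested.

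**Figure D2:**
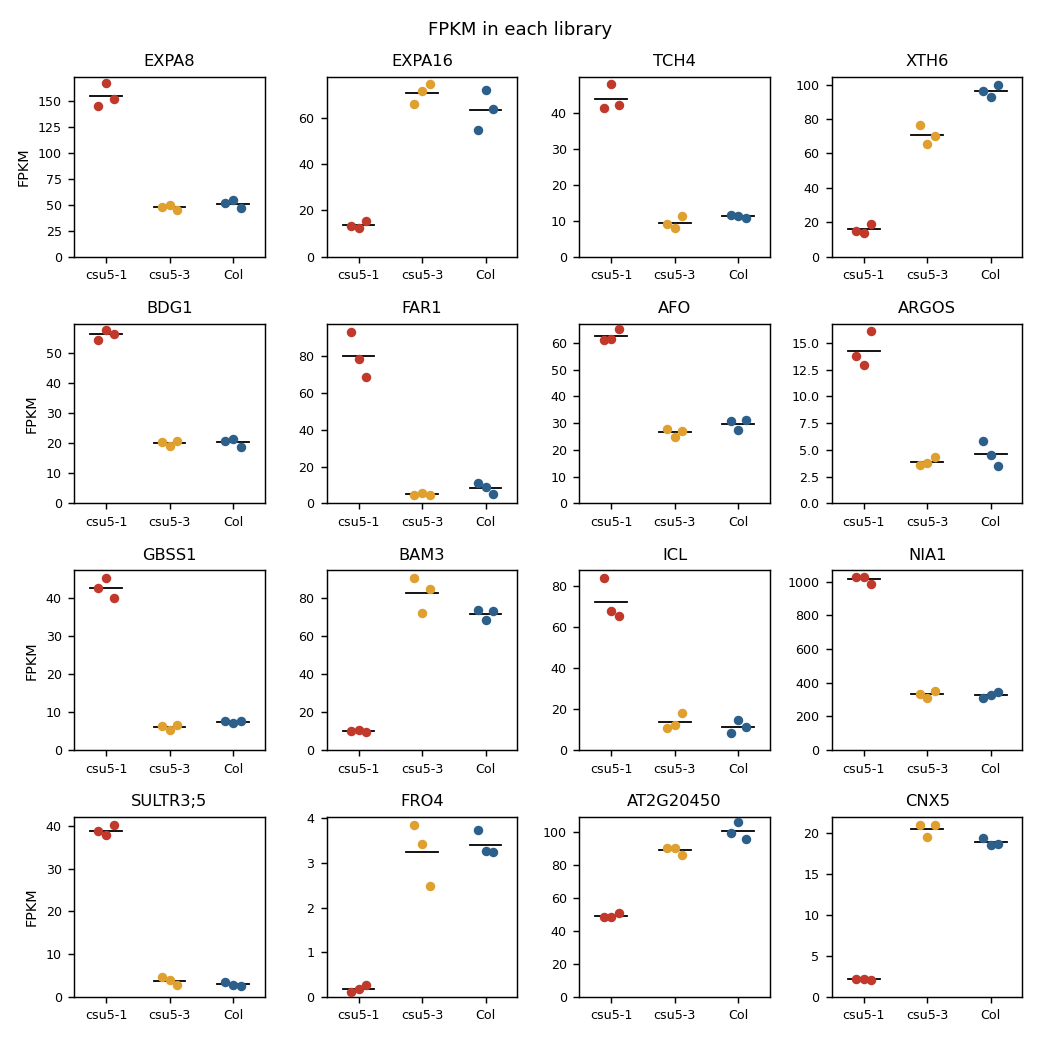
FPKM of 16 genes in each library (points) with the mean of each genotype (line), csu5-1 in red, csu5-3 in orange and Col in blue, each panel on its own linear axis from 0. In all 16 panels the 3 csu5-1 points lie apart from the 3 Col points. They lie above them for genes such as EXPA8, FAR1 and NIA1. They lie below them for EXPA16, XTH6, BAM3 (listed as CT-BMY), FRO4, AT2G20450 and CNX5. The rule that named FAR1, XTH6, BAM3, FRO4 and CNX5 among the strongest changes required this separation. EXPA8, NIA1, EXPA16 and AT2G20450 were picked as called genes with small p-values, so the separation is not a separate result.

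The outer barrier of the shoot had genes that rose and none that fell. Of 25 tested genes for cutin and wax, the polyester and the lipids that waterproof the shoot, 7 rose (28.0%) and none fell, and 6 of the 7 were also higher than in csu5-3. Without scaling between libraries 4 of them rose. BDG1, an extracellular hydrolase needed for an intact cuticle, was at 54.5, 57.9 and 56.6 FPKM in csu5-1, against 20.8, 21.5 and 18.9 FPKM in Col, a log2 fold of 1.52 ± 0.06 (limma, adjusted p = 3e-09). PEL3, an acyltransferase of cuticle formation, rose to 13.7 ± 1.51 FPKM in csu5-1, against 4.68 ± 0.509 FPKM in Col (SD, n = 3 each). KCS1, which elongates fatty acids, rose to 117 FPKM in csu5-1, against 74.7 FPKM in Col, and CER1, which makes wax alkanes, rose to 11.9 FPKM in csu5-1, against 4.44 FPKM in Col. CER1 was higher in csu5-1 than in csu5-3, where it averaged 7.56 FPKM.

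The barrier of the root, suberin and the Casparian strip, had 6 of 22 tested genes that rose (27.3%) and none that fell, although the median log2 fold of the list was 0.0. FAR1, which reduces fatty acids to the alcohols found in suberin, was at 93.1, 78.5 and 68.6 FPKM in csu5-1, against 11.0, 9.17 and 5.16 FPKM in Col, a log2 fold of 3.3 ± 0.2 (limma, adjusted p = 5.8e-08). The libraries did not overlap, which the rule that named FAR1 among the strongest rises required. In csu5-3 FAR1 averaged 5.03 FPKM. CASP5, a membrane scaffold of the Casparian strip, rose to 58.6 FPKM in csu5-1, against 28.9 FPKM in Col. PER64, the peroxidase that lays down lignin in the strip, rose to 47.0 ± 5.49 FPKM in csu5-1, against 27.6 ± 3.89 FPKM in Col. Markers of root endodermis and stele summed to 199 to 206 FPKM in csu5-1 and 165 to 178 FPKM in Col, and 1 of the 4 rose. What part the abundance of these cells had was not tested.

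GDSL lipases, a large family of secreted lipid hydrolases, had 51 tested genes of 99, of which 14 rose (27.5%) and 2 fell (3.92%). Of the 51, 1 passed the level filter through csu5-1 alone and 2 through Col alone, and among the others 13 rose and none fell. AT5G45670 was at 66.7, 68.5 and 75.5 FPKM in csu5-1, against 17.1, 16.7 and 15.3 FPKM in Col, a log2 fold of 2.14 ± 0.06 (limma, adjusted p = 2.7e-10). ARAB-1 rose to 105 FPKM in csu5-1, against 38.5 FPKM in Col, and AT4G18970 rose to 112 FPKM in csu5-1, against 31.8 FPKM in Col. Among 49 tested lipid transfer proteins 10 rose (20.4%) and 6 fell (12.2%), and 1 of the 49 passed the level filter through csu5-1 alone. The neighbours AT5G48490 and DIR1, the second of which is needed for systemic immune signalling, showed the mutants on either side of Col. AT5G48490 averaged 358 FPKM in csu5-1, 87.4 FPKM in csu5-3 and 141 FPKM in Col, and DIR1 averaged 126 FPKM in csu5-1, 35.7 FPKM in csu5-3 and 64.1 FPKM in Col.

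Many regulators of leaf growth and the shoot meristem rose. Of 33 tested genes 13 rose (39.4%) and 1 fell (3.03%), with a median log2 fold of 0.38 in csu5-1 and −0.07 in csu5-3. Of the 33, 2 passed the level filter through csu5-1 alone, and 8 rose without csu5-1 replicate 2 or without scaling. AFO, a YABBY factor of the lower leaf side, was at 61.1, 61.3 and 65.1 FPKM in csu5-1, against 31.0, 27.6 and 31.1 FPKM in Col, a log2 fold of 1.13 ± 0.07 (limma, adjusted p = 4e-08). PHB and PHV, homeodomain leucine zipper factors of the upper leaf side, rose too, so regulators of both sides were higher. PHB averaged 45.8 ± 0.349 FPKM in csu5-1 and 29.4 ± 1.03 FPKM in Col, and PHV averaged 20.8 ± 0.789 FPKM in csu5-1 and 13.7 ± 0.422 FPKM in Col (SD, n = 3 each). ARGOS, which enlarges organs by prolonging cell division, was at 13.7, 12.9 and 16.1 FPKM in csu5-1, against 5.8, 4.55 and 3.47 FPKM in Col. The growth-regulating factor GRF7 was at 3.92, 2.9 and 4.67 FPKM in csu5-1, against 0.51, 0.49 and 0.7 FPKM in Col, and it passed the level filter through csu5-1 alone.

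Other developmental factor families had more rises than falls. Of 47 tested homeodomain leucine zipper genes, 12 rose (25.5%) and 1 fell (2.13%), with a median of 0.36. HB4 and HAT2 belong to the group of these factors that responds to shade and auxin. HB4 rose to 7.26 FPKM in csu5-1, against 2.4 FPKM in Col, and HAT2 was at 21.8, 20.9 and 22.6 FPKM in csu5-1, against 13.9, 11.7 and 10.3 FPKM in Col. Of 12 tested DOF factors 5 rose (41.7%) and none fell, although without scaling 2 did, and without csu5-1 replicate 3 or Col replicate 1 3 did. CDF3 and CDF2, DOF factors that delay flowering, rose to 27.4 and 16.6 FPKM in csu5-1, against 12.2 and 10.5 FPKM in Col. In a list of 29 tested flowering-time and floral identity genes that does not hold FLC, 5 rose (17.2%) and none fell, while FLC, given above, fell. With the exon length trend removed 8 of the list rose. SVP, a partner of FLC in repressing flowering, rose to 25.1 FPKM in csu5-1, against 14.8 FPKM in Col, and SPL10, a promoter of the phase change to adult leaves, rose to 10.2 FPKM in csu5-1, against 6.13 FPKM in Col. None of 17 tested TCP factors, which control the timing of leaf cell division, was called, with a median of −0.21, although 6 were higher and 7 lower at an unadjusted p below 0.05 (limma).

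Cell division was covered by lists for mitosis and the cell cycle and for DNA replication. Of 45 tested genes for mitosis and the cell cycle, 8 rose (17.8%) and 1 fell (2.22%), with a median log2 fold of 0.28 in csu5-1 and 0.09 in csu5-3, and 2 of the 8 were above csu5-3. The number that rose was 5 with a pseudocount of 1 FPKM or without scaling. Of 24 tested DNA replication genes none rose and 1 fell, with a median of 0.12. CYCD1;1, a cyclin that starts the cycle, was at 40.1, 39.0 and 38.2 FPKM in csu5-1, against 21.5, 21.9 and 21.2 FPKM in Col, a log2 fold of 0.92 ± 0.06 (limma, adjusted p = 1.3e-07). CDC20.1, an activator of the anaphase-promoting complex, rose to 24.8 FPKM in csu5-1, against 14.8 FPKM in Col, while csu5-3 averaged 19.0 FPKM. TSO2, the small subunit of the ribonucleotide reductase that makes DNA precursors, was the replication gene that fell, to 43.5 ± 5.6 FPKM in csu5-1, against 74.4 ± 3.72 FPKM in Col, with 98.0 FPKM in csu5-3. AT3G27630, annotated as an SMR3-like inhibitor of cyclin-dependent kinases, fell to 3.34 FPKM in csu5-1, against 13.7 FPKM in csu5-3 and 8.15 FPKM in Col.

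**Figure D3:**
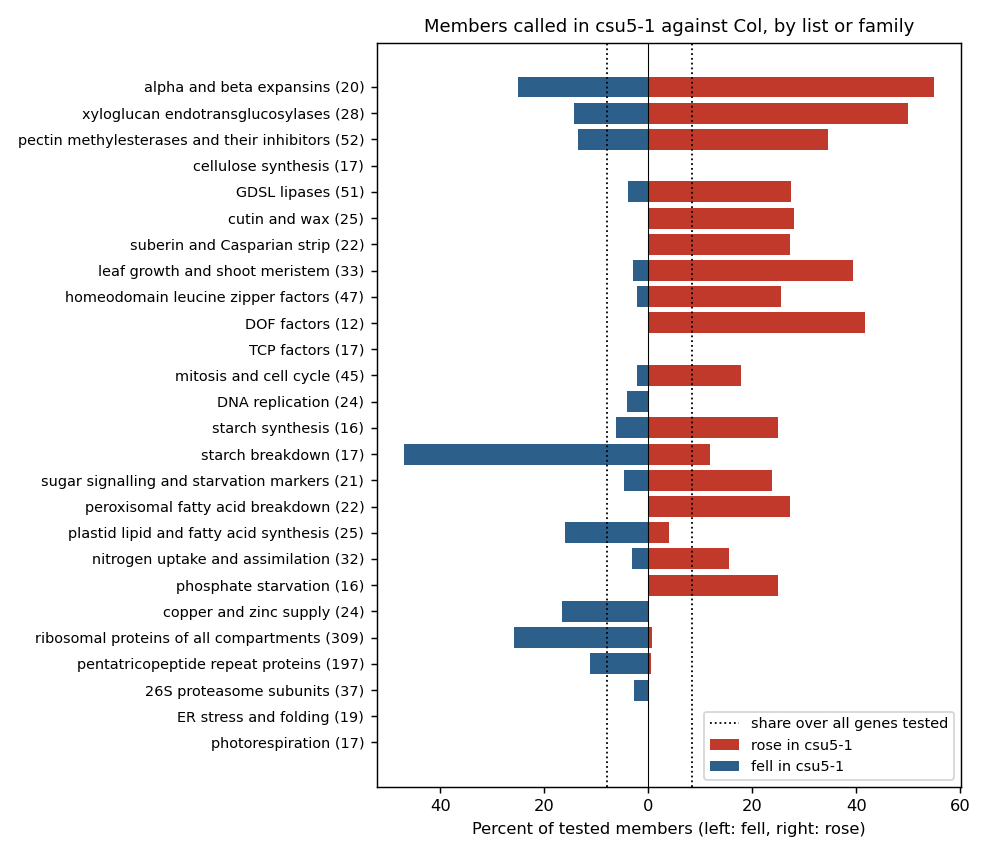
For each list or family (number of tested genes in parentheses), the percent of tested genes that rose in csu5-1 (red, right) and that fell (blue, left), with dotted lines at the shares over all genes tested (8.39% rose and 7.95% fell). Expansins and xyloglucan endotransglucosylases extend farthest to the right and starch breakdown (47.1%) farthest to the left, while ribosomal proteins have 25.9% on the left and 0.647% on the right.

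Genes annotated as ribosomal proteins, of all compartments together, were lower as a body, by small steps. The family was matched by annotation, so it can hold genes whose products are not part of a ribosome. Of 309 tested genes of 342, 288 had a log2 fold below 0, and their median was −0.45 (in csu5-3 −0.16), against 9579 of all 19066 genes below 0. An adjusted p below 0.01 at any fold was reached by 228 lower and 4 higher ribosomal genes, against 3590 lower and 3358 higher genes of all. With the fold limit 80 fell (25.9%), or 121 without scaling, and 2 rose (0.647%), and 31 of the 80 were also below csu5-3. For 10% of them the log2 fold lay below −0.79 and for 10% above −0.1. AT2G20450, a ribosomal protein L14, was at 48.8, 48.5 and 51.1 FPKM in csu5-1, against 99.6, 106 and 95.9 FPKM in Col, a log2 fold of −0.94 ± 0.05 (limma, adjusted p = 3.4e-08). AT4G12600, in the family by its L7Ae annotation, was at 20, 20.02 and 23.4 FPKM in csu5-1, against 71.0, 62.4 and 64.9 FPKM in Col, the larger drop. RFC3, annotated as a protein of the ribosomal S6 family, averaged 9.06 FPKM in csu5-1, 31.7 FPKM in csu5-3 and 37.8 FPKM in Col. Many of these genes have near-identical copies that can share reads, so values of single copies are uncertain.

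Transcript length moved with these folds. Over all tested genes, the median log2 fold was −0.12 for exon lengths below 750 bases, −0.02 in the middle of 5 length classes and 0.1 from 3000 bases up, and 11.2% of the shortest class fell against 4.07% of the longest. Ribosomal genes had medians of −0.36, −0.47, −0.45, −0.34 and −0.22 from the shortest class to the longest, each below that of all genes in the class. With the trend on exon length removed, their median was −0.35.

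Pentatricopeptide repeat proteins, which bind organelle RNA and govern its processing, were a second family with a one-sided count. Of 197 tested genes of 261, 142 had a log2 fold below 0, 22 fell (11.2%) and 1 rose (0.508%), and the median was −0.21 in csu5-1 and 0.03 in csu5-3. Of the 197, 12 passed the level filter through Col alone, and 19 of the other 185 fell. Leaving out csu5-1 replicate 3, Col replicate 1 or Col replicate 3 gave 14 that fell. AT5G46580, a plastid member, was at 15.7, 16.1 and 14.5 FPKM in csu5-1, against 36.4, 32.6 and 30.4 FPKM in Col, a log2 fold of −1.0 ± 0.08 (limma, adjusted p = 5.1e-07). MRL1, which stabilises the plastid transcript of the rubisco large subunit, fell to 25.7 ± 0.486 FPKM in csu5-1, against 43.3 ± 0.227 FPKM in Col (SD, n = 3 each). SVR7, another plastid member, fell to 15.1 FPKM in csu5-1, against 27.7 FPKM in Col, and the member that rose was AT5G13770, at 62.2 FPKM in csu5-1 and 33.1 FPKM in Col. CP29, a plastid RNA-binding protein of another family, was at 198, 191 and 202 FPKM in csu5-1, against 679.9, 697 and 721 FPKM in Col, a log2 fold of −1.75 ± 0.05 (limma, adjusted p = 1.6e-10). Of 37 tested proteasome subunits 1 fell and none rose.

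**Figure D4:**
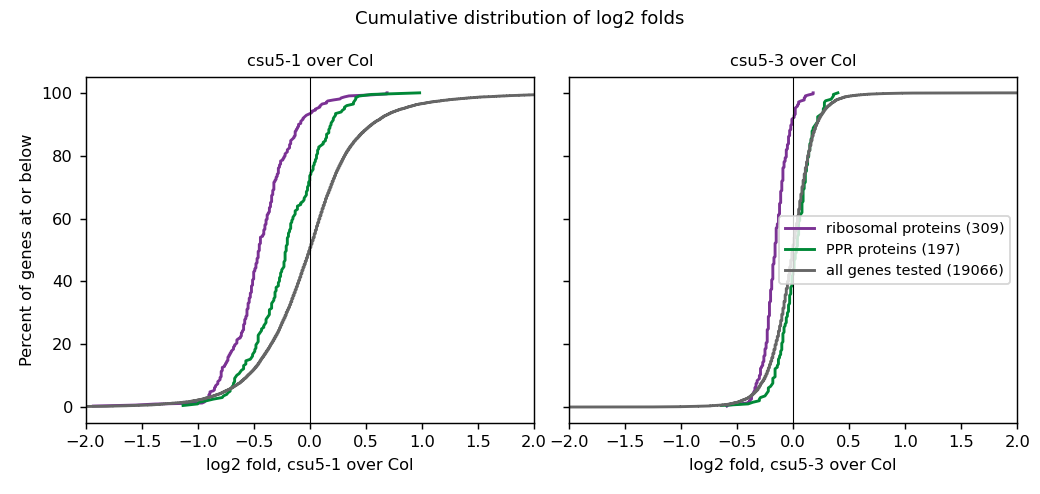
Cumulative percent of genes at or below each log2 fold, for csu5-1 over Col (left) and csu5-3 over Col (right), with ribosomal proteins in violet, pentatricopeptide repeat (PPR) proteins in green and all genes tested in grey, and the axis ending at 2 in either direction. On the left the ribosomal curve crosses the middle at −0.45 and the PPR curve at −0.21, both left of all genes, and on the right the ribosomal curve does so at −0.16 and the PPR curve at 0.03.

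Starch genes were called in both directions. Of 16 tested genes of starch synthesis 4 rose (25%) and 1 fell (6.25%), and of 17 tested genes of starch breakdown 8 fell (47.1%) and 2 rose (11.8%). The median log2 folds were 0.33 and −0.41 in csu5-1, and 0.11 and 0.14 in csu5-3. GBSS1, the granule-bound synthase that makes amylose, was at 42.8, 45.2 and 39.9 FPKM in csu5-1, against 7.59, 7.12 and 7.67 FPKM in Col, a log2 fold of 2.51 ± 0.09 (limma, adjusted p = 1.3e-09). SS1, which extends short amylopectin chains, rose to 63.6 FPKM in csu5-1, against 36.0 FPKM in Col, whereas SS4, which starts granules, fell to 17.9 FPKM in csu5-1, against 32.9 FPKM in Col. On the side of breakdown, the chloroplast beta-amylase BAM3 (CT-BMY) was at 10.0, 10.6 and 9.39 FPKM in csu5-1, against 73.6, 68.0 and 72.9 FPKM in Col, a log2 fold of −2.7 ± 0.08 (limma, adjusted p = 2.7e-10). The kinase PWD, the phosphatase SEX4, the debranching enzyme LDA and the glucan transferase DPE1 fell as well, with log2 folds between −0.75 and −0.67. LSF1, a scaffold of beta-amylase on the granule, rose to 15.3 FPKM in csu5-1, against 8.77 FPKM in Col. Of the 8 genes that fell 7 were also below csu5-3.

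Sugar transport and carbon starvation markers changed in part. Of 21 tested genes of sugar signalling and starvation, 5 rose (23.8%) and 1 fell (4.76%), and 3 rose with a pseudocount of 1 FPKM or without Col replicate 2. BGAL4, a beta-galactosidase, rose to 248 FPKM in csu5-1, against 108 FPKM in Col, and SEN1, which is induced in the dark, rose to 182 FPKM in csu5-1, against 93.5 FPKM in Col. BT2, an adaptor protein repressed by sugar, fell to 325 FPKM in csu5-1, against 551 FPKM in Col. SUC2, the sucrose loader of the phloem, was at 58.1, 65.7 and 65.8 FPKM in csu5-1, against 107, 119 and 123 FPKM in Col. SUC2 also serves as a phloem marker. The other 3 vascular markers, APL, XCP1 and ATHB-8, were not called, with log2 folds of −0.18, 0.07 and 0.44. The 4 summed to 127 to 141 FPKM in csu5-1 and 172 to 194 FPKM in Col, a sum that includes SUC2 and is not separate from its fall. Whether fewer phloem cells had a part was not tested.

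Enzymes that turn stored oil into sugar were among the genes that rose. Of 22 tested genes of peroxisomal fatty acid breakdown and the glyoxylate cycle 6 rose (27.3%) and none fell, with a median of 0.31 in csu5-1 and 0.09 in csu5-3. ICL, the isocitrate lyase of the glyoxylate cycle, was at 83.9, 68.0 and 65.4 FPKM in csu5-1, against 8.41, 14.9 and 11.3 FPKM in Col, a log2 fold of 2.7 ± 0.19 (limma, adjusted p = 2.7e-07). MLS, the malate synthase that follows it, was at 50.3, 47.1 and 41.2 FPKM in csu5-1, against 11.2, 13.2 and 12.3 FPKM in Col. PCK1, which opens the path from there to sugar, rose to 333 FPKM in csu5-1, against 137 FPKM in Col, and ACX1, an acyl-CoA oxidase, rose to 80.8 FPKM in csu5-1, against 48.8 FPKM in Col. None of the 3 tested seed and embryo markers rose, and the 5 of that list summed to 4.78 to 10.0 FPKM in csu5-1 and 7.84 to 12.2 FPKM in Col. Fatty acid and plastid lipid synthesis ran the other way, with 1 of 25 tested genes that rose (4.0%) and 4 that fell (16.0%). FAD2, the desaturase of the endoplasmic reticulum, fell to 592 ± 39.5 FPKM in csu5-1, against 982 ± 71.1 FPKM in Col, and the galactolipid synthase DGD1 rose to 27.1 FPKM in csu5-1, against 13.2 FPKM in Col.

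Nitrate and sulfate genes included some of the largest single changes. Of 32 tested nitrogen genes 5 rose (15.6%) and 1 fell (3.12%), the nitrate transporter NRT1:2 with a log2 fold of −0.61. NIA1, a nitrate reductase, was at 1029.8, 1029 and 984 FPKM in csu5-1, against 309.5, 328 and 344 FPKM in Col, a log2 fold of 1.71 ± 0.06 (limma, adjusted p = 1e-09). NRT1.1, a nitrate transporter and sensor, rose to 174 FPKM in csu5-1, against 109 FPKM in Col. CNX5, which makes the molybdenum cofactor that nitrate reductase needs, is not in that list and was named as one of the largest falls. It was at 2.23, 2.2 and 2.0 FPKM in csu5-1, against 19.4, 18.6 and 18.7 FPKM in Col, a log2 fold of −2.81 ± 0.08 (limma, adjusted p = 1.6e-10). So a reductase and a gene for its cofactor moved in opposite directions, and CNX5 averaged 20.5 FPKM in csu5-3. Of 27 tested sulfur genes 3 rose (11.1%) and 2 fell (7.41%), beside 8.39% and 7.95% of all genes tested. The sulfate transporter SULTR3;5 was at 38.9, 37.8 and 40.2 FPKM in csu5-1, against 3.38, 2.86 and 2.5 FPKM in Col, a log2 fold of 3.61 ± 0.14 (limma, adjusted p = 2.2e-09). SULTR3;1 was at 9.62, 12.02 and 8.64 FPKM in csu5-1, against 0.67, 0.64 and 0.77 FPKM in Col, and it passed the level filter through csu5-1 alone.

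Copper, phosphate and water transport were covered by shorter lists. Of 24 tested copper and zinc genes none rose and 4 fell (16.7%), and 1 of the 24 passed the level filter through Col alone. Without Col replicate 1 the number that fell was 2. The gene that passed through Col alone was FRO4, a copper reductase of the root surface, at 0.11, 0.17 and 0.27 FPKM in csu5-1, against 3.73, 3.26 and 3.24 FPKM in Col, a log2 fold of −2.48 ± 0.18 (limma, adjusted p = 2.9e-07). Its neighbour FRO5 fell to 1.81 ± 1.05 FPKM in csu5-1, against 8.13 ± 3.04 FPKM in Col, and the copper transporter COPT2 fell to 8.1 ± 3.54 FPKM in csu5-1, against 20.3 ± 1.56 FPKM in Col (SD, n = 3 each). Of 16 tested phosphate starvation genes 4 rose (25%, or 2 genes without csu5-1 replicate 2 or Col replicate 1) and none fell, and 1 of the 4 was above csu5-3. Only 1 rose with a pseudocount of 1 FPKM, and 2 rose without scaling. PAP10, a secreted acid phosphatase, rose to 27.5 FPKM in csu5-1, against 15.6 FPKM in Col. Of 20 tested aquaporins 3 rose (15.0%) and 1 fell (5.0%), and PIP2E rose to 667 FPKM in csu5-1, against 377 FPKM in Col. ALMT1, a malate channel of the root tip, was among the largest rises, at 45.0, 49.5 and 39.2 FPKM in csu5-1, against 2.3, 2.91 and 1.65 FPKM in Col.

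A run of 7 neighbouring tested genes on chromosome 4 fell together. Of these, the 5 genes AT4G15660 to AT4G15700 are annotated as thioredoxin superfamily proteins, a class of small redox proteins, and the flanking members AT4G15640 and AT4G15710, named because they border the run and after their values were seen, are annotated as an adenylyl cyclase and a cystatin-like protein. AT4G15700 was at 0.58, 0.97 and 0.81 FPKM in csu5-1, against 17.8, 14.7 and 20.3 FPKM in Col, a log2 fold of −3.76 ± 0.14 (limma, adjusted p = 1.3e-09). AT4G15660, AT4G15670, AT4G15680 and AT4G15690 had log2 folds of −3.44, −2.97, −2.65 and −3.23 in csu5-1 and of −0.38, −0.59, −0.66 and −0.43 in csu5-3. For each of the 5 every csu5-1 library lay below every Col library. The rule that named them among the strongest falls required this, and 35.7% of all genes tested showed it. All 5 were lower in csu5-1 than in csu5-3. AT4G15670 and AT4G15700 passed the level filter through Col alone. Every 100-base window of the transcripts of these 5 genes is unique among them. The next tested genes on either side, AT4G15630 and AT4G15730, had log2 folds of 0.08 and 0.16 and were not called. AT5G18600, an equally annotated gene on chromosome 5, fell too, at 11.2, 8.75 and 14.01 FPKM in csu5-1, against 112, 106 and 116 FPKM in Col, a log2 fold of −3.19 ± 0.12 (limma, adjusted p = 1.8e-09).

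Upstream windows are given for 3 consecutive genes of the run alone, and motifs of its other genes are not described. The 3 upstream sequences are shown because the genes fell together. They are the 300 bases before the RefSeq gene start on the plus strand of TAIR10.1, at chr4:8931317-8931616 for AT4G15680, chr4:8933996-8934295 for AT4G15690 and chr4:8937058-8937357 for AT4G15700, 5′ to 3′ with motif matches in capitals (agatatt is the evening element core and agtcaa the W-box, both read on the opposite strand).
AT4G15680: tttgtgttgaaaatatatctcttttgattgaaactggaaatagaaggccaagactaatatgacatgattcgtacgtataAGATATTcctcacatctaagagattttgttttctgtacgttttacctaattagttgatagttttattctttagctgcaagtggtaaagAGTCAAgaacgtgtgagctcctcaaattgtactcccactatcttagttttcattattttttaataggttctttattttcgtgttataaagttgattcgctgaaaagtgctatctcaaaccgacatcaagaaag
AT4G15690: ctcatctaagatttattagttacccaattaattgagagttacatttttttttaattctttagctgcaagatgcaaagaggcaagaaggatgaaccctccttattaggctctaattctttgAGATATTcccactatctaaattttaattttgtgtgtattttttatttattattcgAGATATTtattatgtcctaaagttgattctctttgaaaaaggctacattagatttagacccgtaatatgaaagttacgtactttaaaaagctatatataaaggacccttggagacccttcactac
AT4G15700: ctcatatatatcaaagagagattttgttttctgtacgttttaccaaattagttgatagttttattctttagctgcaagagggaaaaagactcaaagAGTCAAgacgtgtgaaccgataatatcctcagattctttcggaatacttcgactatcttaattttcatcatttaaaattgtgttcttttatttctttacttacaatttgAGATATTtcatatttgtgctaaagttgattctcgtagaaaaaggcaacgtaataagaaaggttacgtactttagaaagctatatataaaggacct
The evening element core stands 221 bases before the start of AT4G15680, 180 and 125 bases before that of AT4G15690 and 95 bases before that of AT4G15700. A W-box stands 133 bases before the start of AT4G15680 and 204 bases before that of AT4G15700. The genes are neighbours of 1 family, so these matches are not independent of each other.

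**Figure D5:**
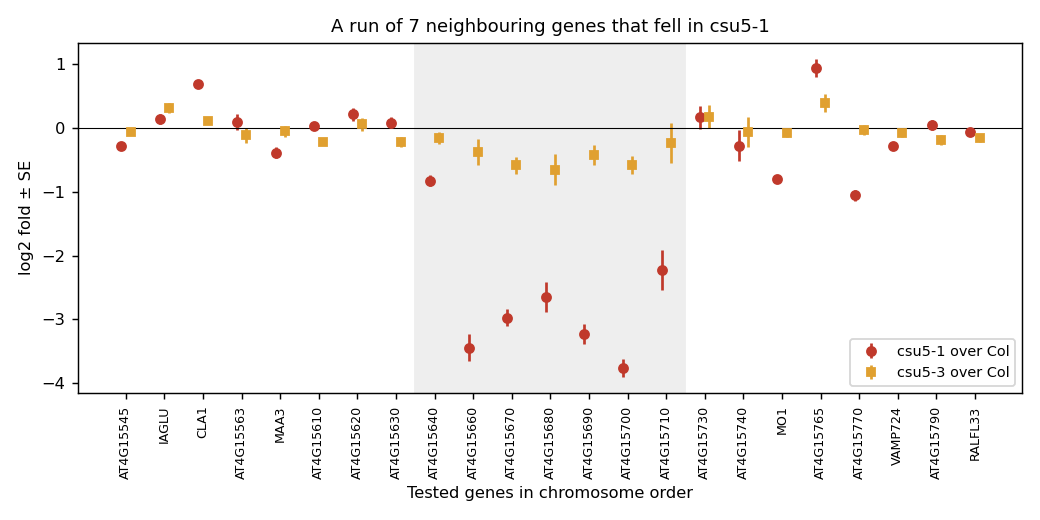
Log2 fold with its SE of csu5-1 over Col (red circles) and of csu5-3 over Col (orange squares) for the 7 genes of the run (grey band) and their tested neighbours in chromosome order. The 5 thioredoxin superfamily genes lie between −3.76 and −2.65 in csu5-1 and between −0.66 and −0.38 in csu5-3, and the genes next to the band lie near 0.

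Runs of at least 4 neighbouring tested genes that rose were also found. There were 4 of them, each of 4 genes. They were AT2G26690 to AT2G26710, which ends with the brassinosteroid-inactivating enzyme BAS1, the SAUR genes SAUR29, SAUR28, SAUR27 and SAUR26, the run AT4G34760 to AT4G34800, and AT5G06970 to AT5G07010, which ends with the sulfotransferases ST2B and ST2A. They were picked out after the values were seen. AT2G26690, a transporter of the NPF family, rose to 132 FPKM in csu5-1, against 83.0 FPKM in Col.

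Among signalling genes, peptide precursors for phytosulfokine, a growth peptide, rose and fell. PSK4 was at 227, 241 and 250.1 FPKM in csu5-1, against 116, 114 and 124 FPKM in Col, a log2 fold of 1.1 ± 0.06 (limma, adjusted p = 1.4e-08). PSK5 rose to 27.8 ± 3.79 FPKM in csu5-1, against 8.95 ± 0.117 FPKM in Col, whereas PSK1 fell to 16.3 FPKM in csu5-1, against 30.2 FPKM in Col. Of 33 tested cytokinin genes 4 rose (12.1%) and 2 fell (6.06%), beside 8.39% and 7.95% of all genes tested. The response regulator ARR11 rose to 13.7 ± 0.956 FPKM in csu5-1, against 5.01 ± 0.237 FPKM in Col, and the phosphotransfer protein AHP4 rose to 5.39 ± 0.988 FPKM in csu5-1, against 1.13 ± 0.583 FPKM in Col. The response factor CRF2 fell to 6.6 FPKM in csu5-1, against 12.2 FPKM in Col.

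Transcription factor families held called genes in both directions, as did all genes tested (8.39% rose and 7.95% fell). The WRKY shares lay below both of these. Of 50 tested WRKY genes 3 rose (6.0%) and 1 fell (2.0%), of 63 NAC genes 6 rose (9.52%) and 2 fell (3.17%), and of 58 ERF and DREB genes 9 rose (15.5%) and 6 fell (10.3%). Leaving aside the genes that passed the level filter through one genotype alone, 2 WRKY, 4 NAC and 6 ERF and DREB genes rose, and 0, 2 and 6 fell. Without csu5-1 replicate 1 or 3, 3 NAC genes rose. Without one of the csu5-1 libraries 3 or 4 ERF and DREB genes were called higher. Basic helix-loop-helix factors had 7 of 29 that rose (24.1%) and 2 that fell (6.9%), and 1 of the 29 passed the level filter through csu5-1 alone. KDR, a small member of that family that promotes elongation, was at 46.0, 47.7 and 54.8 FPKM in csu5-1, against 11.1, 8.96 and 11.3 FPKM in Col, and it averaged 6.93 FPKM in csu5-3. AT2G22200, of the ERF and DREB family, rose to 20.6 ± 1.12 FPKM in csu5-1, against 2.97 ± 0.166 FPKM in Col. The cold regulator CBF2 rose to 3.9 FPKM in csu5-1, against 0.63 FPKM in Col, and passed the level filter through csu5-1 alone. CGA1, a GATA factor of greening, fell to 4.89 ± 1.38 FPKM in csu5-1, against 13.2 ± 1.28 FPKM in Col.

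Enzymes of specialised metabolism and defence went both ways, as did all genes tested (8.39% rose and 7.95% fell). Of 136 tested cytochrome P450 genes 17 rose (12.5%) and 15 fell (11.0%, or 8 genes without Col replicate 2). Of the 136, 1 passed the level filter through csu5-1 alone and 4 through Col alone, and among the others 16 rose and 11 fell. CYP96A12 rose to 45.6 ± 3.01 FPKM in csu5-1, against 5.44 ± 0.514 FPKM in Col. Of 30 beta-glucosidases 7 rose (23.3%) and 2 fell (6.67%). BGLU18, of the endoplasmic reticulum bodies, was at 34.0, 32.7 and 30.3 FPKM in csu5-1, against 3.03, 3.85 and 3.93 FPKM in Col, and it rose in csu5-3 too, to 12.8 FPKM. BGLU33 fell to 4.67 ± 0.513 FPKM in csu5-1, against 24.7 ± 0.313 FPKM in Col. Of 53 resistance genes of the TIR-NBS-LRR class 7 rose (13.2%) and 9 fell (17.0%). Of the 53, 2 passed the level filter through Col alone and 8 of the others fell. With a filter of 5 FPKM 4 rose and 2 fell, and 4 rose without scaling or with the exon length trend removed. AT4G19530 fell to 4.19 FPKM in csu5-1, against 17.0 FPKM in Col. In the carotenoid pathway BETA-OHASE 2, a carotene hydroxylase, rose to 40.7 FPKM in csu5-1, against 7.8 FPKM in Col. The xanthophyll cycle enzymes moved apart, with ABA1 at 115 FPKM in csu5-1 and 66.6 FPKM in Col, and NPQ1 at 17.9 FPKM in csu5-1 and 49.8 FPKM in Col.

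The largest falls after FLC included genes with little in common by annotation. AT1G23130, of the polyketide cyclase family, was at 3.17, 3.1 and 1.76 FPKM in csu5-1, against 60.7, 40.5 and 41.8 FPKM in Col. CRL2, an oxidoreductase-like gene, was at 0.41, 0.21 and 0.51 FPKM in csu5-1, against 11.3, 8.8 and 11.4 FPKM in Col, and it passed the level filter through Col alone. Their csu5-3 means of 44.7 and 11.5 FPKM lay beside Col. AT4G34950, a membrane carrier of the major facilitator superfamily, fell to 11.3 ± 0.318 FPKM in csu5-1, against 64.0 ± 5.01 FPKM in Col. Among the largest rises, the F-box protein AT1G73120 reached 422 ± 6.46 FPKM in csu5-1, against 50.1 ± 11.8 FPKM in Col, and AT5G44440, of the berberine bridge enzyme family, reached 240.0 FPKM in csu5-1, against 16.5 FPKM in Col. THI2.2, a thionin, was at 53.7, 61.5 and 60.5 FPKM in csu5-1, against 4.61, 2.72 and 4.03 FPKM in Col.

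Several lists held few calls. None of the tested genes was called for protein folding in the endoplasmic reticulum (19 tested), photorespiration (17 tested) or the heat shock factors (15 tested). At an unadjusted p below 0.05 (limma) 9 folding genes were higher and 1 lower, 4 photorespiration genes were higher and 8 lower, and 4 heat shock factors were higher and 4 lower. Of 30 tested genes for chromatin silencing 1 rose, CMT2. Among 20 tested steady reference genes 1 fell, TUB4, at 270.0 FPKM in csu5-1 and 436 FPKM in Col, a call lost without Col replicate 1. The reference gene PP2AA3 averaged 32.4 ± 0.878 FPKM in csu5-1 and 32.9 ± 0.857 FPKM in Col. ACT2 averaged 442 FPKM in csu5-1 and 587 FPKM in Col, a log2 fold of −0.33 ± 0.05, and UBQ10 averaged 900.0 FPKM in csu5-1 and 725 FPKM in Col, a log2 fold of 0.39 ± 0.05, neither of them past the fold limit.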

How the data were processed

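Polyadenylated RNA of whole seedlings was sequenced in 9 libraries. Per the submitters' processing notes, the tools were Trimmomatic for trimming, HISAT2 2.05 for alignment to TAIR10 and HTSeq for counting. The deposited values carry no stated unit and were read as FPKM from the values themselves: sums per library differed (691388 to 718744), and 75.9% to 83.2% of the low values of short genes lay within 0.1 read of a whole number at the depths given, against 12.5% to 15.0% at other depths. The step from counts to FPKM, which the authors took, is not described in the sources used here. That share was too low to recover counts, so no count test was run. In the files, 1 read on 1 kb of exon was worth 0.0233 to 0.027 FPKM. Replicates differed by more than counting error (mean chi-square per gene 8.1 to 13.5).

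The level filter asked for 1 FPKM or more in at least 3 of the 6 csu5-1 and Col libraries. Genes passing it were tested with limma 3.58.1 (R 4.3.3) on log2 values, using a trend of variance on mean. FPKM were first divided by scaling factors, each a mean of log ratios trimmed by 0.3 at each end (0.9624 to 0.9708 for csu5-1 and 1.017 to 1.025 for Col), and 0.5 FPKM was then added. One mean per genotype was fitted over the 9 libraries, so csu5-3 shares in the estimate of the spread. The added 0.5 FPKM makes log2 folds of low genes too small. Calls needed a Benjamini-Hochberg adjusted p below 0.01, over all genes tested, and a fold above 1.5, the limits that the series text states. "Rose" and "fell" are used for called genes. Whether libraries overlapped was judged on FPKM without scaling, so those shares are not on the scale of the folds and calls. The fit was tested on simulated data. Python 3.11.15, pandas 2.3.3, numpy 2.4.6 and matplotlib 3.10.9 did the rest.

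Names, gene starts and exon lengths came from RefSeq TAIR10.1, in which 31912 of the 32678 identifiers were placed. Lists and families (34 and 37, with 10 marker lists) and their members were chosen with earlier results of these data known, and 930 of 951 list and marker entries were matched. Genes were named by a rule. It took the 20 strongest rises and the 20 strongest falls in log2 fold among called genes that reached a mean of 2 FPKM in a genotype and whose libraries did not overlap, the 10 largest gains and 10 largest losses in FPKM, the called members of each list with the 6 smallest p-values (the 2 smallest where none was called), WRKY32, HY5, PIF4, COP1, steady reference genes and cell type markers. Of the genes tested, 6010 overlap another annotated gene. Whether strand was used in counting is not stated, so their values are uncertain; among those named are FLC, CAB1, CT-BMY, CNX5, FAR1, BDG1, CASP5, PER64, RFC3, DIR1, NPQ1, TSO2 and GRF7. LHCB and ribosomal copies can share reads.

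Replicate number was not used as a block in the main fit, because the labels do not say what it marks. Libraries of csu5-1 and Col with the same number had deviations correlated at 0.063, 0.098 and 0.062. Those with different numbers had correlations of −0.063 to −0.002. Alternatives were another pseudocount, other filters, no scaling, quantile normalization, a fit of 6 libraries, no trend, the replicate block and leaving out each library. Removal of the trend on exon length was chosen after seeing the data.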

Additional observations from a re-analysis of the deposited data

How the results depend on the processing

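The number of genes that rose in csu5-1 was 1189 to 1699 over the other settings and the number that fell 1162 to 1944, with the lowest counts under a filter of 5 FPKM and the most falls without scaling. Leaving out 1 library gave 1416 to 1603 that rose and 1367 to 1517 that fell. Of the 336 named called genes, 336 kept direction and call under the replicate block, which gave 1619 that rose and 1562 that fell. Each csu5-1 library deviated most like the Col library of its own number, a hint from the data and not from the design, since all 3 correlations were at most 0.098. Without scaling 29 of the 336 lost their call, with a pseudocount of 1 FPKM 16, and with the exon length trend removed (1699 rose and 1325 fell) 11. Leaving out 1 csu5-1 or Col library took the call from 10 to 24 of them, and a further 17 (csu5-1) or 11 (Col) no longer passed the level filter, so that 298 to 315 kept their call. CAB1 had a log2 fold of 0.0 after quantile normalization, against −0.61. It had the highest value of every csu5-1 and Col library, and that setting gives the top genes of all libraries 1 value, so the 0.0 is set by its construction. For csu5-3 against Col, 47 genes were called, 9 without a filter, 4 without the mean-variance trend, 76 under the replicate block and 15 to 50 with 1 library left out; the cause was not tested. Counts of lists and families that moved beyond 1.5 times with 1 library left out included, for genes that rose, leaf growth and shoot meristem (13, or 8 without csu5-1 replicate 2), MYB factors (9, or 5 without csu5-1 replicate 2), LEA proteins (6, or 2 to 3 without csu5-1 replicate 1 or Col replicate 1), NAC factors (6, or 3 without csu5-1 replicate 1 or 3) and phosphate starvation (4, or 2 without csu5-1 replicate 2 or Col replicate 1). For genes that fell they included pentatricopeptide repeat proteins (22, or 14 without csu5-1 replicate 3 or Col replicate 1 or 3) and expansins (5, or 3 without Col replicate 1). The ribosomal median of −0.45 was below 0 under each setting run.

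Depth limits low genes: with 37.1 to 41.7 M counted reads, 1 read on 1 kb of exon was worth 0.024 to 0.027 FPKM. With 3 libraries per genotype, small folds of variable genes could not be called.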

Other observations

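Genes at nearly nothing in one genotype and clearly listed in the other were few. With a limit of 0.1 FPKM in all 3 libraries of one genotype and a mean of at least 2 FPKM in the other, 2 genes were found on the side of csu5-1 and 1 on the side of Col, all picked out by their values. PAP1, the MYB factor that switches on anthocyanin synthesis, was at 3.46, 3.97 and 2.4 FPKM in csu5-1, against 0.05, 0.03 and 0.0 FPKM in Col, and DFR, an enzyme of that pathway, was at 5.99, 6.29 and 3.69 FPKM in csu5-1 and listed at 0 in all 3 Col libraries. AT3G16670, of the Ole e 1 allergen and extensin family, was listed at 0 in all 3 csu5-1 libraries, against 0.85, 5.16 and 0.46 FPKM in Col and 2.48, 1.16 and 1.9 FPKM in csu5-3, and its level was too low for it to be tested.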
